A study of Mus musculus with 15 samples.

Results

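The axon guidance ligands and receptors of the mouse auditory nerve were taken as all genes whose symbol names an ephrin, an Eph receptor, a class 3 to class 7 semaphorin, a plexin, a neuropilin, a Slit, a Robo, a netrin, DCC or an UNC5 receptor, with a normalized count of at least 10 in at least 3 of 15 libraries. Of the 18536 genes in the deposited table, 69 symbols matched and all 69 passed that minimum: 35 ligands and 34 receptors. The member nearest the minimum was Robo3, with values between 0 and 17.4, and no matching symbol fell outside it. Per the labels, the nerve was microdissected from the mouse cochlea at postnatal day 3 (P3), P7, P14, P21 and in adults, with 3 libraries per age. The 2 cochleae of 1 mouse were pooled in each library, so replicates are mice. No treatment or engineered allele is given for any group, and strain, sex and adult age in days are not given in the sources used here.

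The auditory nerve holds the spiral ganglion neurons, which carry sound signals from hair cells to the brainstem, with their Schwann cells, connective tissue and vessels. Guidance ligands steer a growing axon by attracting or repelling its tip. Ephrins are bound to the cell surface and act on Eph receptor kinases. Slits are secreted and repel axons through Robos, and netrins attract through DCC or repel through UNC5 receptors. Semaphorins act through plexins, and most secreted class 3 semaphorins need a neuropilin as co-receptor. In the mouse cochlea, Slit2 with Robo1 and Robo2, EphA4 with its ephrins, and Sema3F with neuropilin-2 are known to position spiral ganglion neurons or their fibres. The onset of hearing in mice falls between P7 and P14.

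The deposited values are normalized read counts, that is, the reads of a gene scaled by a single size factor for its library. Between 35250155 and 42258738 reads per library could be recovered from them, and 3 reads were worth between 2.53 and 3.65 normalized counts. Each comparison gives a log2 fold change of log2(normalized count + 1), the later age over the earlier one, with its standard error (SE). Genes with a Benjamini-Hochberg adjusted p under 0.05 in limma, adjusted over all 16723 genes tested, are said to have risen or fallen. P21 replicate 2 stood apart: it was the lowest P21 library for 52 of the 69 guidance genes (75.4%) and for 40.3% of all genes tested. Over all genes, its recovered reads differed from those of P21 replicates 1 and 3 with a mean chi-square per gene of 96.6 and 121.5. Between P21 replicates 1 and 3 it was 29.4.

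The neuron markers were present at every age. The summed level of 10 spiral ganglion neuron markers ran between 438989 and 467831 normalized counts in adult libraries and between 55459 and 88763 in P3 ones. The 10 Schwann cell markers summed to between 156056 and 254041 at P3, 809201 and 1006176 at P14, and 315767 and 351271 in adults. The 8 fibroblast markers summed to between 64110 and 73354 in adults and between 591617 and 898247 at P3. The 5 cochlear fibrocyte markers summed to between 36657 and 74773 at P3, 112632 and 125420 at P7, 365788 and 746038 at P14, 728417 and 1064748 at P21, and 339246 and 541576 in adults. The markers of that list differed. In adult against P3, 3 rose (Otos, Coch and Slc4a11) and 2 fell (Pou3f4 and Car3). Sums for osteoblast, osteoclast, chondrocyte, macrophage, cochlear epithelium and dividing cell markers were also lower in every adult library than in every P3 library. Of the 6 chondrocyte markers, 4 fell and 1 rose in adult against P3, and the 1 that rose was Acan. The sum of the 8 endothelial markers stayed between 14583 and 18743 over all libraries, but single markers differed. In adult against P3, 1 of them rose, 4 fell and 3 were not called. The 6 oligodendrocyte markers summed to between 28755 and 32907 at P3, 60958 and 115254 at P14, and 45864 and 48676 in adults. They differed among the P14 libraries, where Mog ran between 432 and 7532, Mobp between 850 and 13081 and Cnp between 53567 and 71250. No marker of these lists had a mean of 0 at any age. In such bulk samples, fewer cells of a type and less RNA per cell cannot be told apart, and the part that these marker shifts had in the results that follow was not tested.

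Across the 4 steps from P3 to adult, guidance genes fell more often than they rose up to P21. They rose more often than they fell between P21 and adult. The share called was near that of all genes in P7 against P3 (26.1% against 28.1%) and in P21 against P14 (8.7% against 9.29%). All genes also fell more often than they rose in P21 against P14 (6.0% against 3.29%). In P14 against P7, 26 of the 69 fell and 13 rose. Robo2, Slit2, Nrp2, Ephb2 and 4 of the 5 ephrin-A genes were among those that fell, and Unc5a, Sema7a and Sema3e were among those that rose. In adult against P21, 35 rose and 5 fell, among them 7 of 9 plexins and 4 of 5 netrin receptors that rose. Over the whole span, adult against P3, 29 fell and 16 rose.

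These counts read as follows against all genes tested. In P7 against P3, 18 guidance genes were called, 6 up and 12 down, where 28.1% of all genes were called, 15.4% up and 12.8% down. In P14 against P7, 39 were called, where 48.1% of all genes were called, 24.3% up and 23.8% down. In P21 against P14, 6 fell and 0 rose, where 9.29% of all genes were called, 3.29% up and 6.0% down. With limma, 24 guidance genes had an unadjusted p under 0.05 in that step, and 0 of these were higher at P21. Without P21 replicate 2, 17 had one and 3 of these were higher at P21. With quantile normalization, 25 had one and 2 of these were higher. The share of all genes under that unadjusted threshold was not counted. DESeq2 called 12 and edgeR 7, all lower, where DESeq2 called 15.1% and edgeR 9.46% of all genes. In adult against P21, 40 were called, where 49.4% of all genes were called, 25.4% up and 24.1% down. In adult against P3, 45 were called, where 68.7% of all genes were called, 34.4% up and 34.3% down. Over all 5 ages jointly, 62 of the 69 were called, against 85.4% of all genes.

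The median log2 fold change of the 69 genes was -0.30 in P7 against P3, -0.29 in P14 against P7 and -0.29 in P21 against P14, where the median of all genes was -0.02, -0.02 and 0.00. It was 0.50 in adult against P21 and -0.35 in adult against P3, where the median of all genes was 0.00 and -0.01. The medians of the steps into and out of P21 include P21 replicate 2. Without that library, 48 of the 69 (69.6%) were higher in adults than at P21, against 50.6% of all genes. In P14 against P7, 7 of 35 ligands rose and 15 fell, and 6 of 34 receptors rose and 11 fell. In adult against P21, 20 of 34 receptors and 15 of 35 ligands rose, and 2 receptors and 3 ligands fell. Differences between ligands and receptors were not tested.

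The count for P7 against P3 moved with single libraries, as did that of all genes. Leaving out P7 replicate 4 gave 5 calls (19.1% of all genes were then called), leaving out its replicate 5 gave 7 (18.4%) and its replicate 6 gave 11 (21.9%). Leaving out P3 replicate 2 gave 8 (20.1%), P3 replicate 3 also 8 (18.7%) and P21 replicate 2 gave 33 (38%). Without P3 replicate 3, as many rose as fell, 4 each. The 6 calls of P21 against P14 became 3 without P14 replicate 3, where 3.77% of all genes were called. In adult against P21, 28 rose without P21 replicate 2, where 21.8% of all genes did. The number that fell there was 3 without adult replicate 2 (19.7% of all genes fell), without adult replicate 3 (20.7%) or without P21 replicate 3 (25.0%). The titles of the adult libraries mark them as controls, and whether they were made together with the postnatal ones is not given, so age and library set cannot be told apart in comparisons with adults.

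**Figure D1:**
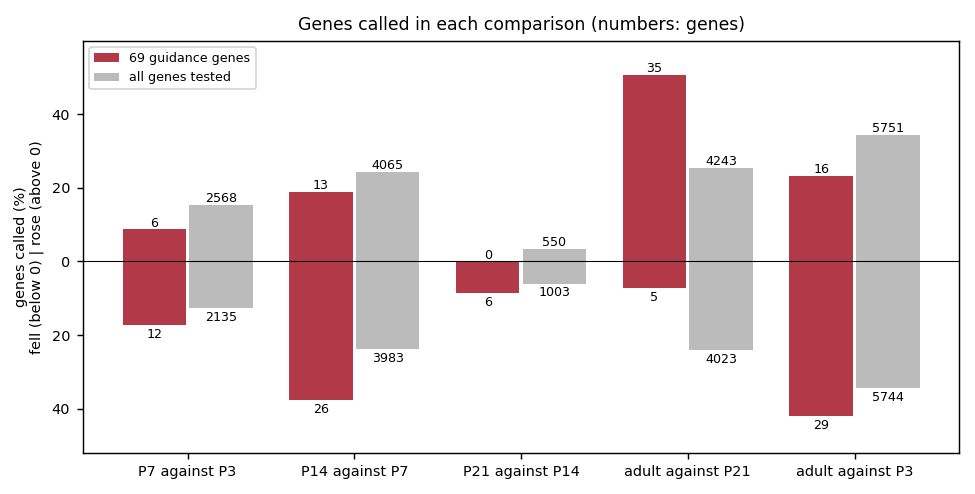
Percent of genes that rose (above 0) or fell (below 0) in each comparison, for the 69 guidance genes (red) and all 16723 genes tested (grey), with the number of genes on each bar. The guidance bars reach lower than the grey ones in P14 against P7 (26 fell) and higher in adult against P21 (35 rose).

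By mean level, 29 of the 69 genes were highest at P3, 13 at P7, 6 at P14, 0 at P21 and 21 in adults, where P21 held the highest mean of 16.4% of all genes tested. The lowest mean was at P21 for 34 guidance genes (49.3%) and for 16.1% of all genes. Without P21 replicate 2, P21 was lowest for 27 guidance genes (39.1%) and for 13% of all genes. P21 was then highest for 1 guidance gene and for 2022 of all 16723 genes. Over the 4 steps, 21 genes only fell (30.4%, against 29.7% of all genes tested), 22 only rose (31.9% against 30.6%), 18 did both (26.1% against 19.1%) and 8 passed no step (11.6% against 20.7%). The ratio of the highest to the lowest age mean had a median of 2.34 in the guidance genes, was at least 2 in 62.3% of them and in 49.8% of all genes with no age at 0, and reached 35.5 in Slit1.

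**Figure D2:**
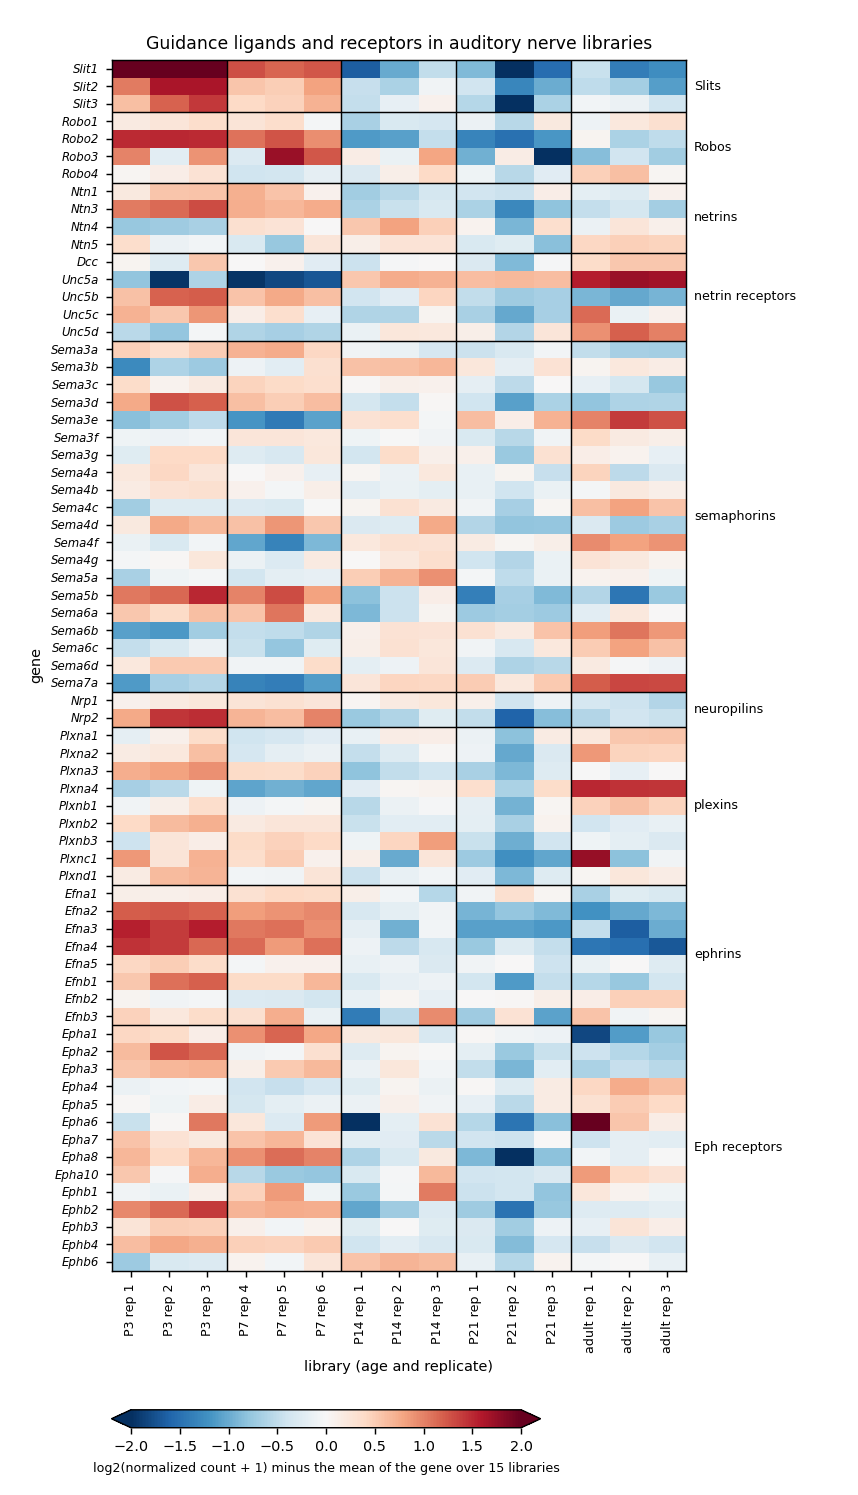
Heat map of the 69 guidance genes (rows, by family) in 15 libraries (columns, P3 to adult), as log2(normalized count + 1) minus the mean of the gene. Red is above and blue below that mean. Slits, Nrp2, Efna2 and Efna4 are red at P3 and blue in adults, while Unc5a, Sema7a and Plxna4 run the other way, and P21 replicate 2 is blue in most rows.

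Per kilobase of exon, the scale on which genes can be compared with each other, Sema7a had the highest mean of the 69 genes at P3, P14, P21 and in adults, and Sema3b the highest at P7. Sema7a stood at 7192 normalized counts per kilobase in adults and 1722 at P3. In adults it was followed by the ligands Sema3b (1956) and Sema4c (1293). At P3 it was followed by the receptors Plxnb2 (1455) and Plxnd1 (1160). The lowest was Robo3, a divergent Robo known from commissural axons, at 0.379 in adults and 1.14 at P3.

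The 3 Slit genes encode secreted repellents, and all 3 fell in adult against P3. Slit2 had 9108, 13702 and 13642 normalized counts at P3, 6458, 6174 and 7712 at P7, 3217, 2835 and 4186 at P14, 3376, 1788 and 2217 at P21 and 3105, 2750 and 2050 in adults. Every library from P14 on was below every P3 and P7 library. Slit2 fell in adult against P3 (log2 fold change -2.20 ± 0.24 SE, adjusted p = 2.0e-06), in P14 against P7 (log2 fold change -1.003 ± 0.24 SE, adjusted p = 0.0035) and in P7 against P3 (log2 fold change -0.82 ± 0.24 SE, adjusted p = 0.021). The P7 call ended in 4 alternatives that each leave out 1 of P3 replicates 2 and 3 and P7 replicates 4 and 5, with adjusted p up to 0.0813.

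Slit1 had 209, 123 and 309 normalized counts at P3, 54.2, 49.4 and 52.6 at P7, 6.20, 10.2 and 15 at P14, 11.2, 0 and 6.85 at P21 and 15.6, 7.66 and 8.51 in adults. The P21 library with 0 reads allows up to 3.08 normalized counts, which covers counting error only. The adult libraries did not overlap those at P3, and Slit1 had the largest fall of the 69 genes there (log2 fold change -4.18 ± 0.72 SE, adjusted p = 1.7e-04). Its fold change depended on the settings: it was -3.37 with a pseudocount of 10 and -3.53 with the sex pattern as covariate. Slit1 also fell in P14 against P7 (log2 fold change -2.28 ± 0.72 SE, adjusted p = 0.019), a call that ended with a pseudocount of 0.1 (0.141), without P7 replicate 4 (0.0504) and without P14 replicate 1 (0.0676). Slit3 had 907, 256 and 872 at P21, so that P21 replicate 2 stood far below the other P21 libraries. Its rise in adult against P21 (log2 fold change 1.01 ± 0.38 SE, adjusted p = 0.041) was 0.41 without that library, and the call ended in 12 of 27 alternatives.

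Robo1 and Robo2 are Slit receptors of axons. Robo2 had 2239, 2276 and 2242 normalized counts at P3, 1698, 1911 and 1516 at P7, 362, 374 and 573 at P14, 318, 282 and 356 at P21 and 825, 511 and 559 in adults. All 9 libraries from P14 on were below the 6 earlier ones. In P14 against P7 its fall was the largest among guidance genes with a mean of at least 100 normalized counts at the higher age (log2 fold change -1.99 ± 0.19 SE, adjusted p = 2.3e-06). Robo2 then rose in adult against P21 (log2 fold change 0.96 ± 0.19 SE, adjusted p = 0.0016) and was lower in adult against P3 (log2 fold change -1.86 ± 0.19 SE, adjusted p = 1.2e-06).

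Robo1 had 2693, 2819 and 3021 normalized counts at P3, 2825, 3026 and 2299 at P7, 1505, 1921 and 1881 at P14, 2191, 1620 and 2709 at P21 and 2210, 2753 and 2952 in adults. It fell in P14 against P7 (log2 fold change -0.62 ± 0.17 SE, adjusted p = 0.0095), and adult and P3 libraries overlapped, with no call in adult against P3 (log2 fold change -0.12 ± 0.17 SE, adjusted p = 0.56). Robo4, known from endothelial cells, rose in adult against P21 (log2 fold change 0.66 ± 0.18 SE, adjusted p = 0.0099). Robo3 and Robo4 lie 2.0 kb apart on chromosome 9.

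Netrins are laminin-related secreted ligands. Ntn1 had 1769, 2263 and 2289 normalized counts at P3, 2522, 2298 and 1638 at P7, 952, 1053 and 1208 at P14, 1189, 1149 and 1694 at P21 and 1353, 1300 and 1643 in adults. It fell in P14 against P7 (log2 fold change -0.99 ± 0.18 SE, adjusted p = 6.0e-04), and all P14 libraries were below all P7 libraries. Ntn1 was also lower in adult against P3 (log2 fold change -0.55 ± 0.18 SE, adjusted p = 0.016), a call that ended with the sex pattern as covariate (0.0937) and without P3 replicate 2 (0.0548), P3 replicate 3 (0.0563) or adult replicate 2 (0.0579).

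Ntn4, a netrin of basement membranes, had 1245, 1207 and 1001 normalized counts at P7, against 589, 608 and 636 at P3. The groups did not overlap, and this was the largest rise of P7 against P3 (log2 fold change 0.91 ± 0.24 SE, adjusted p = 0.013). Ntn3 went the other way and fell in adult against P3 (log2 fold change -1.66 ± 0.16 SE, adjusted p = 4.7e-07). Of the 4 netrins, 1 rose and 2 fell in adult against P3.

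DCC, the attractive netrin receptor, had 617, 492 and 861 normalized counts at P3, 594, 628 and 506 at P7, 436, 584 and 591 at P14, 483, 320 and 580 at P21 and 762, 858 and 863 in adults. It rose in adult against P21 (log2 fold change 0.88 ± 0.22 SE, adjusted p = 0.0062) and was not called in adult against P3 (log2 fold change 0.37 ± 0.22 SE, adjusted p = 0.16), where the libraries of both ages overlapped.

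The UNC5 receptors, which mediate repulsion by netrins, divided. Unc5a had 206, 91.1 and 232 normalized counts at P3, 91.3, 100.7 and 109 at P7, 521, 598 and 580 at P14, 546, 560 and 550 at P21 and 1063, 1189 and 1148 in adults. Every library from P14 on exceeded every earlier one, and the adult libraries exceeded all others. Unc5a had the largest rise of P14 against P7 (log2 fold change 2.49 ± 0.25 SE, adjusted p = 3.7e-06), rose again in adult against P21 (log2 fold change 1.04 ± 0.25 SE, adjusted p = 0.0048) and had the largest rise of adult against P3 (log2 fold change 2.79 ± 0.25 SE, adjusted p = 3.4e-07).

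Unc5b had 4044, 6101 and 6186 normalized counts at P3, 3974, 4527 and 4056 at P7, 2069, 2294 and 3613 at P14, 1918, 1644 and 1690 at P21 and 1425, 1326 and 1415 in adults. It fell in P14 against P7 (log2 fold change -0.70 ± 0.19 SE, adjusted p = 0.008) and in adult against P3 (log2 fold change -1.94 ± 0.19 SE, adjusted p = 7.2e-07), and each adult library was below every library of the 4 earlier ages. Unc5d rose in adult against P3 (log2 fold change 1.48 ± 0.21 SE, adjusted p = 2.4e-05). Unc5c had 2293, 954 and 1111 in adults, with adult replicate 1 far above the other adult libraries, against 672, 516 and 663 at P21. The groups did not overlap, and Unc5c rose there (log2 fold change 1.13 ± 0.28 SE, adjusted p = 0.0054).

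**Figure D3:**
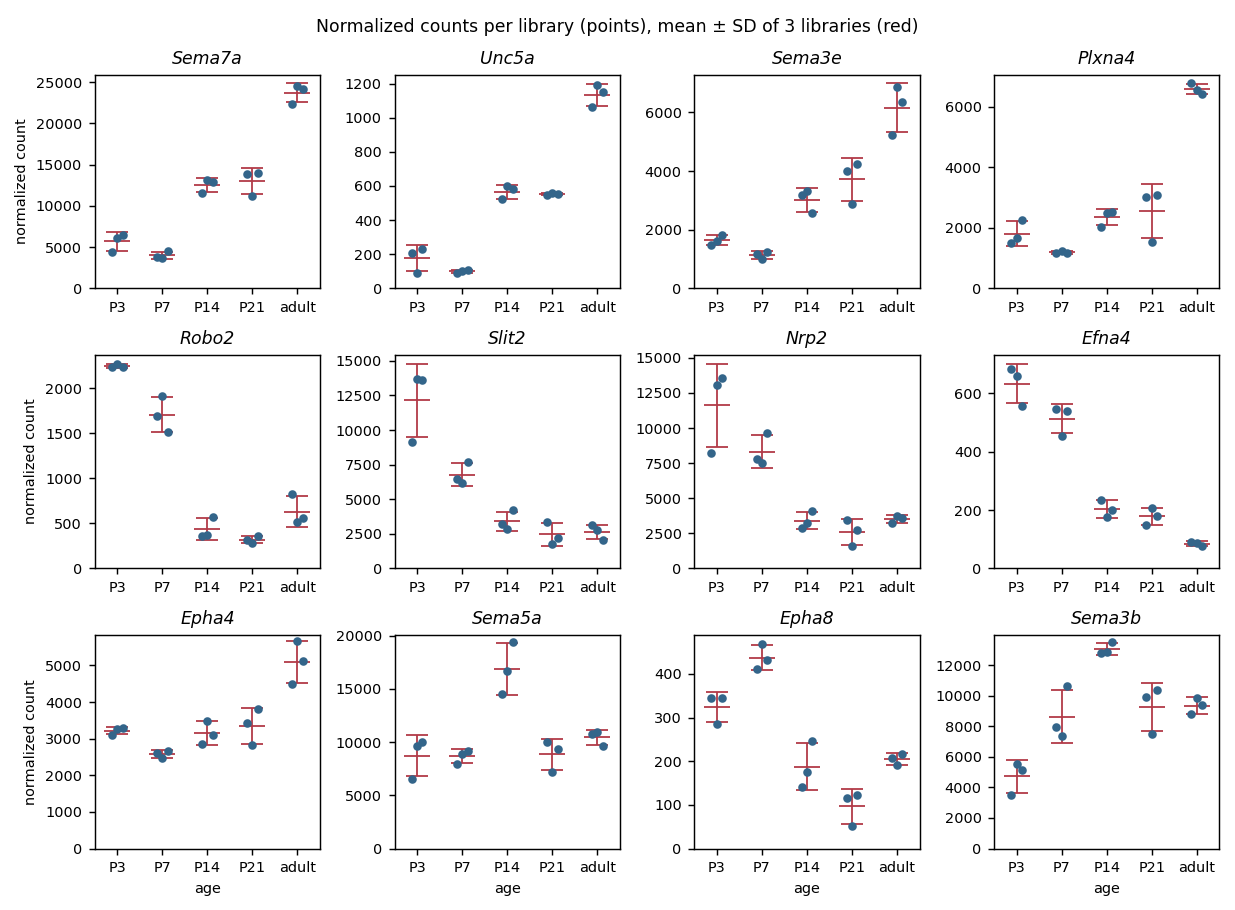
Normalized counts of 12 guidance genes at P3, P7, P14, P21 and in adults, with 1 point per library and the mean ± SD of 3 libraries in red, each panel on its own linear axis from 0. Sema7a, Unc5a, Sema3e and Plxna4 are highest in adults, Robo2, Slit2, Nrp2 and Efna4 are highest at P3, and Sema5a and Sema3b are highest at P14.

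The 20 semaphorins held the genes with the largest rises beside Unc5a: 8 rose and 6 fell in adult against P3. Sema7a, a semaphorin held on the membrane by a lipid anchor and known to promote axon growth through integrins, had 4424, 6134 and 6482 normalized counts at P3, 3855, 3720 and 4486 at P7, 11509, 13104 and 12896 at P14, 13830, 11209 and 14011 at P21 and 22396, 24569 and 24189 in adults. The libraries of P14 and P21 lay above those of P3 and P7, and those of adults above all others. Sema7a rose in P14 against P7 (log2 fold change 1.64 ± 0.13 SE, adjusted p = 6.0e-07), in adult against P21 (log2 fold change 0.87 ± 0.13 SE, adjusted p = 3.8e-04) and in adult against P3 (log2 fold change 2.08 ± 0.13 SE, adjusted p = 1.4e-08). P7 and P3 libraries overlapped, and the call of a fall there (log2 fold change -0.48 ± 0.13 SE, adjusted p = 0.017) ended without P3 replicate 2 or 3 or P7 replicate 4 or 5, with adjusted p up to 0.0822. Its receptor gene Plxnc1 had 2229, 378 and 637 in adults, against 403, 286 and 326 at P21. Plxnc1 was called higher there (log2 fold change 1.28 ± 0.50 SE, adjusted p = 0.047), but its fold change was 0.55 without adult replicate 1 and the call ended in 15 of 27 alternatives.

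The 7 secreted class 3 semaphorins went both ways: in adult against P3, Sema3b, Sema3e and Sema3f rose and Sema3a, Sema3c and Sema3d fell. Sema3e, which acts on plexin-D1 without needing a neuropilin, had 1475, 1616 and 1826 normalized counts at P3, 1162, 987 and 1244 at P7, 3191, 3324 and 2556 at P14, 4007, 2883 and 4252 at P21 and 5240, 6880 and 6349 in adults. All P14 libraries were above all earlier ones. It rose in P14 against P7 (log2 fold change 1.42 ± 0.16 SE, adjusted p = 9.0e-06), in adult against P21 (log2 fold change 0.74 ± 0.16 SE, adjusted p = 0.0024) and in adult against P3 (log2 fold change 1.90 ± 0.16 SE, adjusted p = 1.5e-07). It also fell in P7 against P3 (log2 fold change -0.54 ± 0.16 SE, adjusted p = 0.023), a call that ended in 4 alternatives, with adjusted p up to 0.0984. Plxnd1 itself was called in adult against P21 (log2 fold change 0.60 ± 0.18 SE, adjusted p = 0.016), a call that ended with quantile normalization (0.0532) and without P21 replicate 2 (0.0647) or adult replicate 2 (0.0511). It was not called in adult against P3 (log2 fold change -0.36 ± 0.18 SE, adjusted p = 0.095), but was called lower there in 3 of 27 alternatives, with adjusted p down to 0.00271.

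Sema3a, the collapsing factor for sensory axons, had 1539, 1386 and 1566 normalized counts at P3, 1787, 1837 and 1464 at P7, 1043, 1005 and 869 at P14, 813, 890 and 1062 at P21 and 784, 693 and 689 in adults. It fell in P14 against P7 (log2 fold change -0.80 ± 0.12 SE, adjusted p = 8.8e-05) and in adult against P3 (log2 fold change -1.05 ± 0.12 SE, adjusted p = 2.6e-06), and no library from P14 on reached the lowest P3 or P7 library. The smaller fall in adult against P21 (log2 fold change -0.35 ± 0.12 SE, adjusted p = 0.026) ended in 4 alternatives, with adjusted p up to 0.105. Sema3a and Sema3e lie 421.8 kb apart on chromosome 5. Sema3b had 7949, 7336 and 10624 at P7, against 3507, 5555 and 5126 at P3, with no overlap (log2 fold change 0.88 ± 0.17 SE, adjusted p = 0.0028). It rose again in P14 against P7 (log2 fold change 0.61 ± 0.17 SE, adjusted p = 0.01), where 12773, 12886 and 13488 at P14 stood above all other ages, and that call ended without P7 replicate 5 (0.0516).

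Among membrane semaphorins, Sema4f had 219, 178 and 243 at P7, against 410, 365 and 434 at P3, with no overlap (log2 fold change -0.92 ± 0.11 SE, adjusted p = 1.0e-04). It then rose in P14 against P7 (log2 fold change 1.36 ± 0.11 SE, adjusted p = 5.8e-07), and 874, 793 and 846 in adults exceeded all other libraries. Sema5a, which carries thrombospondin repeats outside the cell, had 6548, 9653 and 9985 normalized counts at P3, 7972, 8915 and 9194 at P7, 14465, 16680 and 19425 at P14, 9995, 7180 and 9350 at P21 and 10748, 10927 and 9642 in adults. The P14 libraries stood above all others. Sema5a rose in P14 against P7 (log2 fold change 0.95 ± 0.16 SE, adjusted p = 3.5e-04) and fell in P21 against P14 (log2 fold change -0.93 ± 0.16 SE, adjusted p = 0.0044); that fall was not called when only the libraries of P14 and P21 were fitted (0.0635). Its relative Sema5b had 168, 221 and 326 at P14, against 595, 742 and 519 at P7, and fell there (log2 fold change -1.41 ± 0.28 SE, adjusted p = 9.1e-04). The 4 class 6 semaphorins, which signal through A plexins, all rose in adult against P21, where the calls of Sema6a and Sema6d ended in 1 and 3 of 27 alternatives.

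Neuropilins are the co-receptors of class 3 semaphorins, and both fell in adult against P3. Nrp1, which also binds VEGF, had 6548, 7002 and 7224 normalized counts at P3, 7375, 7642 and 7273 at P7, 6316, 7022 and 7208 at P14, 6641, 4662 and 5733 at P21 and 4898, 4622 and 4127 in adults. It was not called in the 3 steps up to P21 and fell in adult against P3 (log2 fold change -0.61 ± 0.11 SE, adjusted p = 2.2e-04), where the groups did not overlap. In adult against P21 the groups overlapped, and the call (log2 fold change -0.31 ± 0.11 SE, adjusted p = 0.032) ended in 6 of 27 alternatives. Nrp2 had 8199, 13078 and 13567 normalized counts at P3, 7783, 7509 and 9655 at P7, 2912, 3211 and 4119 at P14, 3453, 1598 and 2703 at P21 and 3227, 3754 and 3592 in adults. Nrp2 fell in P14 against P7 (log2 fold change -1.29 ± 0.25 SE, adjusted p = 8.7e-04) and in adult against P3 (log2 fold change -1.69 ± 0.25 SE, adjusted p = 4.4e-05), and no library from P14 on reached the lowest P7 library. Sema3f, its best known ligand, rose in adult against P3 (log2 fold change 0.31 ± 0.10 SE, adjusted p = 0.016), a call that ended with quantile normalization (0.0547) and without adult replicate 1 (0.0764).

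Plexins are the signalling receptors of semaphorins. In adult against P21, 7 of the 9 rose and 0 fell, and in adult against P3, Plxna4 rose, Plxna3 and Plxnb2 fell and the other 6 were not called. Plxna4, the partner of neuropilin-1 and of class 6 semaphorins, had 1507, 1651 and 2262 normalized counts at P3, 1149, 1227 and 1169 at P7, 2036, 2470 and 2515 at P14, 3018, 1542 and 3095 at P21 and 6775, 6535 and 6426 in adults. The adult libraries lay far above all others, and P21 replicate 2 lay at the level of the P3 libraries. Plxna4 rose in P14 against P7 (log2 fold change 0.98 ± 0.22 SE, adjusted p = 0.0023), in adult against P21 (log2 fold change 1.43 ± 0.22 SE, adjusted p = 3.6e-04) and in adult against P3 (log2 fold change 1.89 ± 0.22 SE, adjusted p = 4.1e-06). Plxnb3, a receptor for Sema5a, had 1612, 1126 and 1689 at P21, against 2073, 2985 and 3921 at P14. The fall (log2 fold change -0.99 ± 0.22 SE, adjusted p = 0.013) was not called with only both ages fitted (0.142) or without P14 replicate 3 (0.0639).

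Ephrin-A ligands are anchored to the membrane by a lipid and bind EphA receptors, and all 5 fell in adult against P3. Efna4 had 684, 660 and 556 normalized counts at P3, 548, 455 and 538 at P7, 235, 174 and 200 at P14, 150, 209 and 179 at P21 and 91.6, 87.5 and 76.6 in adults. The libraries fell into a high set at P3 and P7, a lower set at P14 and P21 and the lowest in adults. Efna4 fell in P14 against P7 (log2 fold change -1.34 ± 0.15 SE, adjusted p = 1.2e-05), in adult against P21 (log2 fold change -1.05 ± 0.15 SE, adjusted p = 3.0e-04) and in adult against P3 (log2 fold change -2.88 ± 0.15 SE, adjusted p = 2.4e-09). Efna3 had 33.3, 14.2 and 23.1 in adults, against 140, 125 and 141 at P3, with no overlap (log2 fold change -2.55 ± 0.29 SE, adjusted p = 3.8e-06). Efna2 was also lower in adult against P3 (log2 fold change -2.25 ± 0.11 SE, adjusted p = 1.2e-09).

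Efna5, the ephrin paired with EphA4 in the cochlea, had 1193, 1266 and 1156 normalized counts at P3, 871, 953 and 958 at P7, 810, 838 and 734 at P14, 852, 904 and 675 at P21 and 821, 906 and 752 in adults. Its P3 libraries were above all others, and it fell in adult against P3 (log2 fold change -0.55 ± 0.11 SE, adjusted p = 4.9e-04). The fall in P7 against P3 (log2 fold change -0.38 ± 0.11 SE, adjusted p = 0.02) ended without P3 replicate 2 (0.0716) or P7 replicate 4 (0.0791). Efna1 had 526, 696 and 667 in adults, against 792, 1033 and 846 at P21. That fall (log2 fold change -0.50 ± 0.16 SE, adjusted p = 0.019) ended without P21 replicate 2 (0.0764) or adult replicate 1 (0.0849). Efna1, Efna3 and Efna4 are neighbours on chromosome 3, with 34.0 kb between Efna1 and Efna3 and 10.5 kb between Efna3 and Efna4.

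Of the 3 transmembrane ephrin-B ligands, Efnb1 fell, Efnb2 rose and Efnb3 was not called in adult against P3. Efnb2, a marker of arterial endothelium and a partner of EphA4 and EphB receptors, had 3986, 3656 and 3711 normalized counts at P3, 3152, 3124 and 2963 at P7, 3460, 3912 and 3419 at P14, 3850, 3897 and 4147 at P21 and 4188, 5326 and 5346 in adults. It was lowest at P7 and highest in adults. It rose in adult against P3 (log2 fold change 0.38 ± 0.09 SE, adjusted p = 0.0021), a call that ended with quantile normalization (0.187), and in adult against P21 (log2 fold change 0.31 ± 0.09 SE, adjusted p = 0.012), which ended in 4 alternatives with adjusted p up to 0.162. The fall in P7 against P3 (log2 fold change -0.30 ± 0.09 SE, adjusted p = 0.027) ended in 5 alternatives that leave out 1 library, with adjusted p up to 0.0853. The log2 fold change of adult over P3 was lower in Efnb1 (log2 fold change -1.51 ± 0.20 SE, adjusted p = 1.3e-05) than in Efnb3 (log2 fold change -0.16 ± 0.48 SE, adjusted p = 0.77), a difference that was not tested.

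Of the 9 EphA receptors, 2 rose and 4 fell in adult against P3, and 5 rose and 1 fell in adult against P21. Of the 2 that rose against P3, Epha5 lost its call in 5 of 27 alternatives. Epha4, which binds ephrins of both classes, had 3108, 3269 and 3287 normalized counts at P3, 2604, 2466 and 2663 at P7, 2861, 3495 and 3111 at P14, 3435, 2822 and 3797 at P21 and 4491, 5658 and 5125 in adults. The adult libraries stood above all others. Epha4 rose in adult against P21 (log2 fold change 0.61 ± 0.11 SE, adjusted p = 9.7e-04) and in adult against P3 (log2 fold change 0.65 ± 0.11 SE, adjusted p = 1.3e-04). The smaller steps, P7 against P3 (log2 fold change -0.32 ± 0.11 SE, adjusted p = 0.045) and P14 against P7 (log2 fold change 0.29 ± 0.11 SE, adjusted p = 0.046), ended in 10 and 11 of 26 alternatives, with adjusted p up to 0.133 and 0.181.

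Epha1 had 689, 669 and 566 normalized counts at P3, 972, 1158 and 881 at P7, 590, 602 and 413 at P14, 528, 489 and 481 at P21 and 146, 236 and 304 in adults. It was highest at P7 and lowest in adults, where it fell against P21 (log2 fold change -1.19 ± 0.22 SE, adjusted p = 0.0012). Its rise in P7 against P3 (log2 fold change 0.64 ± 0.22 SE, adjusted p = 0.047) ended in 11 of 26 alternatives, with adjusted p up to 0.159. Epha2, known from epithelium and vessels, had 407, 418 and 533 at P7, against 667, 1031 and 949 at P3, with no overlap (log2 fold change -0.95 ± 0.18 SE, adjusted p = 0.0021). Epha10, an Eph receptor without kinase activity, had 212, 188 and 182 at P7, against 457, 308 and 520 at P3, with no overlap, and had the largest fall among the genes called in that step (log2 fold change -1.11 ± 0.24 SE, adjusted p = 0.0044).

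Epha8 had 345, 285 and 345 normalized counts at P3, 410, 469 and 433 at P7, 141, 174 and 247 at P14, 116, 51.4 and 122 at P21 and 208, 190 and 216 in adults. It fell in P14 against P7 (log2 fold change -1.26 ± 0.28 SE, adjusted p = 0.0022) and rose in adult against P21 (log2 fold change 1.17 ± 0.28 SE, adjusted p = 0.0044). Its fall in P21 against P14 (log2 fold change -1.01 ± 0.28 SE, adjusted p = 0.039) ended in 14 of 27 alternatives, with adjusted p up to 0.266. Epha6 had 100.9, 19.7 and 14.6 in adults, where adult replicate 1 again stood far above the others, and its rise against P21 (log2 fold change 2.15 ± 0.75 SE, adjusted p = 0.03) was 1.31 without that library, with calls lost in 6 of 26 alternatives.

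Of the 5 EphB receptors, Ephb6 rose and Ephb2 and Ephb4 fell in adult against P3. The call of Ephb6 (log2 fold change 0.37 ± 0.15 SE, adjusted p = 0.042) ended in 9 of 27 alternatives, with adjusted p up to 0.201. Ephb2 had 330, 414 and 556 at P14, against 1081, 1136 and 1122 at P7, with no overlap (log2 fold change -1.39 ± 0.20 SE, adjusted p = 9.6e-05). Ephb4, the venous receptor of ephrin-B2, fell in adult against P3 (log2 fold change -1.08 ± 0.12 SE, adjusted p = 3.3e-06). Ephb6, which lacks kinase activity, was highest at P14, at 4300, 4654 and 4488, and fell in P21 against P14 (log2 fold change -0.84 ± 0.15 SE, adjusted p = 0.0052), a call that ended with only both ages fitted (0.0851).

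**Figure D4:**
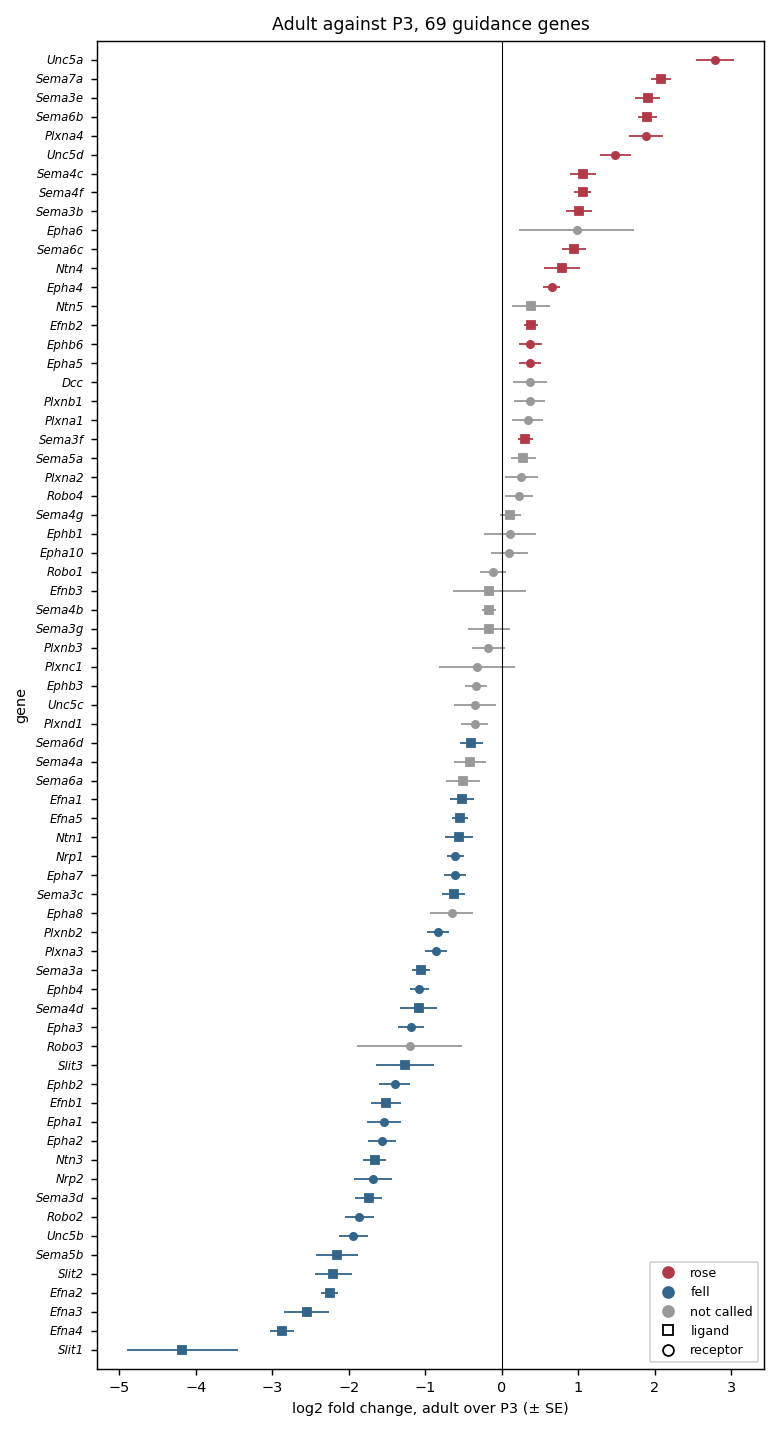
Log2 fold change, adult over P3, of the 69 guidance genes with its SE, sorted by size. Squares are ligands, circles are receptors, red marks the 16 genes that rose, blue the 29 that fell and grey the 24 not called. Unc5a (2.79) and Slit1 (-4.18) are at the ends, and all 5 ephrin-A genes and all 3 Slits are blue.

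The start regions of 4 of these genes are printed because they belong to the largest rises (Unc5a and Sema7a) and to a pair of neighbours that both fell (Efna4 and Efna3) in adult against P3. Each window is RefSeq's, on GRCm38.p6, with 250 bases before and 50 after the start, on the strand of the gene. It is written 5′ to 3′ in lower case, with capitals for GGGCGG and its reverse complement CCGCCC, the letters of a GC box. The windows are chr13:54949161-54949460 on the plus strand for Unc5a, chr9:57939862-57940161 on the plus strand for Sema7a, chr3:89337979-89338278 on the minus strand for Efna4 and chr3:89322890-89323189 on the minus strand for Efna3, which has a further start downstream.
Unc5a: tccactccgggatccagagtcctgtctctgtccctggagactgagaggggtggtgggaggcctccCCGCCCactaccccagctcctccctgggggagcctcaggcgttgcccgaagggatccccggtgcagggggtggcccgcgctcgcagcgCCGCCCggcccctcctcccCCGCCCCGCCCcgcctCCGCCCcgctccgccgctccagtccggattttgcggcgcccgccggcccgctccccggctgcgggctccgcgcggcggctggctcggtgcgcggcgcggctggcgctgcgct
Sema7a: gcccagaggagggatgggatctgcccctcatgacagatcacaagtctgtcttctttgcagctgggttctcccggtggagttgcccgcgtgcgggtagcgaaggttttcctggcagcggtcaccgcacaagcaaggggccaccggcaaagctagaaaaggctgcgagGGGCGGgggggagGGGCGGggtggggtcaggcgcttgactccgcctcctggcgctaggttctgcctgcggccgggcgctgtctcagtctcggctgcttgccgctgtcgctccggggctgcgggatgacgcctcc
Efna4: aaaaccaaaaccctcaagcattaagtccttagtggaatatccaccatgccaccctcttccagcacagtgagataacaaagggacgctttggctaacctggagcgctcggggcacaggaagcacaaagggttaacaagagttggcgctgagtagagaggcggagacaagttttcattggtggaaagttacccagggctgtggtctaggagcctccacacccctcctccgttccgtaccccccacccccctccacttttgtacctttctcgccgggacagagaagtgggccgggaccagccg
Efna3: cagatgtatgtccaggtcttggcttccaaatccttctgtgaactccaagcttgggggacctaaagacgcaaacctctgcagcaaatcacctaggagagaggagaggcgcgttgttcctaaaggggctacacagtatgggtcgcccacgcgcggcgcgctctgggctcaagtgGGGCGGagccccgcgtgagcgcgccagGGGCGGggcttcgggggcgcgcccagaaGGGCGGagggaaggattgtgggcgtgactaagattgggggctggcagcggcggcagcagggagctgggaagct

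Unc5a held 5 matches to GGGCGG on both strands, Sema7a 2, the Efna3 window 3 and Efna4 0. Windows were found for 59 of the 69 genes, and 44 of those genes (74.6%) held GGGCGG in at least 1 window, against 38.2% of the 27025 genes with a window. GCGNGGGCG, whose letters can overlap those of GGGCGG, was held by 23.7% of the 59 genes and 6.27% of all. The letters CANNTG were held by 55.9% and 75% and TATAAA by 3.39% and 15.7%, counting both strands. For CG dinucleotides, the window of a gene with the most was taken, and the median over genes was 23 in guidance genes and 8 in all genes. The 27025 genes were not limited to the genes tested here, while all 69 guidance genes passed the minimum count. The part that this difference had in these percentages and medians was not tested. Matches to letters are a description and do not show binding.

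Lists of other guidance genes, not used to choose the 69, are set beside them. The first holds 41 genes of signalling below these receptors, such as adaptors, GTPase regulators and kinases. Of these, 11 rose and 7 fell in P14 against P7, 20 rose and 5 fell in adult against P21, and 17 rose and 13 fell in adult against P3. In P7 against P3, 2 rose and 3 fell, and in P21 against P14, 1 rose and 3 fell. Of all genes tested, 24.3% rose and 23.8% fell in P14 against P7, and 25.4% and 24.1% in adult against P21. The shares were 34.4% and 34.3% in adult against P3, 15.4% and 12.8% in P7 against P3, and 3.29% and 6.0% in P21 against P14. The genes named next had the smallest adjusted p of the list over all 5 ages and were not chosen to stand for it. All of them rose in adult against P3, while 13 genes of the list fell. Chn1, a Rac-regulating effector of EphA4, rose in adult against P3 (log2 fold change 1.96 ± 0.08 SE, adjusted p = 1.8e-10). So did the cofilin kinases Limk1 (log2 fold change 2.54 ± 0.14 SE, adjusted p = 3.6e-09) and Limk2 (log2 fold change 1.43 ± 0.07 SE, adjusted p = 9.7e-10), and Pitpna, a phosphatidylinositol transfer protein that binds DCC (log2 fold change 1.52 ± 0.06 SE, adjusted p = 2.6e-10).

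The second list holds 29 other guidance cues, receptors and adhesion molecules. In P14 against P7, 9 rose and 10 fell, in adult against P21, 16 rose and 4 fell, and in adult against P3, 12 rose and 14 fell. In P7 against P3, 2 rose and 9 fell, and in P21 against P14, 0 rose and 3 fell. The shares of all genes are those given for the first list, and the genes named next were taken by the same rule. Cntn2, an axonal adhesion molecule, had 8214 ± 384 (SD, n = 3) normalized counts in adults and 787 ± 308 (SD, n = 3) at P3 and rose (log2 fold change 3.46 ± 0.23 SE, adjusted p = 1.8e-08). Slitrk1, a synaptic adhesion molecule, also rose in adult against P3 (log2 fold change 2.27 ± 0.14 SE, adjusted p = 7.8e-09), as did Rgmb, a neogenin ligand (log2 fold change 1.38 ± 0.09 SE, adjusted p = 1.3e-08). Gpc1, a heparan sulfate proteoglycan that binds Slit, fell (log2 fold change -1.49 ± 0.11 SE, adjusted p = 4.0e-08).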

How the data were processed

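RNA-seq libraries of 15 mouse auditory nerves were analysed, 3 per age. Per the submitters' processing notes, Partek, TopHat2 and DESeq2 were used on build mm10; annotation, counting and use of strand are not given in the sources used here, so reads of overlapping or antisense genes cannot be told apart. The deposited signal per gene and library is a read count divided by 1 size factor: dividing by the value of 1 read, between 0.843 and 1.22 by library, made 99.94% of positive values whole (tolerance 0.1). Reads carry no molecular identifiers, so floors cover counting error only.

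Genes with at least 10 normalized counts in at least 3 libraries (16723) were tested with limma 3.58.1 (R 4.3.3; eBayes with trend and robust settings) on the scale log2(value + 1), which understates changes of low genes. The fit took all 15 libraries together, without covariates, and left 10 residual degrees of freedom. P-values are two-sided and Benjamini-Hochberg adjusted over all genes. Alternatives were other pseudocounts, filters and scalings (TMM, quantile), edgeR 4.0.16 and DESeq2 1.42.0 on recovered reads, only both ages, a sex pattern from Xist (over 1000 normalized counts, 5 libraries) as covariate, and each library left out. A sex pattern over 10000 (4 libraries) and a fit of 4 ages without a block were chosen after seeing the data. The sex pattern is tied to age: it held in 0 of 6 libraries at P3 and P7, 1 at P14, 2 at P21 (replicate 2 among them) and 2 in adults. Adult replicate 2 had both Xist (1107) and the Y-linked Eif2s3y (1707). The other libraries with the pattern had Xist of at least 24200 and Eif2s3y of at most 26.7. Its place among the 5 is therefore doubtful, and so are results with that covariate. The analysis was tested on simulated data.

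The members, lists and tests were chosen with earlier results of these data known. Described in full were up to 3 called genes with the largest rise and 3 with the largest fall per comparison, with no overlap and a mean of at least 100 at the higher age, and 13 genes given whatever their values. Others, such as Slit3, Plxnc1 and Epha6, were named for their values. Exon lengths are the union of GENCODE M21 exons. Promoter windows came from RefSeq.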

Additional observations from a re-analysis of the deposited data

How the results depend on the processing

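Of 148 calls for single guidance genes, 100 held under every alternative run for them and 48 were lost under at least 1. Of 197 values without a call, 62 were called under at least 1, and no called value changed direction. The number of genes called in P14 against P7, adult against P21, adult against P3 and over all ages stayed within 1.5 times under every alternative run. In P7 against P3, where 18 were called, DESeq2 called 28 (and 33.6% of all genes) and the fit of only both ages 33 (39.5%), against 28.1% of all genes in the reported fit, and leaving out 1 library gave between 5 and 33. In P21 against P14, where 6 were called, DESeq2 called 12 (15.1% of all genes). The limma fit of only both ages called 0 guidance genes and 0.819% of all genes. In that fit, 13 guidance genes had an unadjusted p under 0.05, a threshold under which all genes were not counted. Leaving out 1 library gave between 3 (3.77% of all genes) and 9 (9.34% without P21 replicate 1 and 7.12% without its replicate 3). The causes were not tested. Same-numbered libraries did not deviate together more than others, with 5 of 18 correlations over 0.1 (between -0.229 and 0.319). The 36 pairs with unlike numbers ran between -0.369 and 0.385. No pairing by number was seen, but such correlations cannot show that there is none. With the replicate block on P3, P14, P21 and adult, 5 guidance genes were called in P21 against P14 (3.86% of all genes) and 35 in adult against P21 (42.7%). In adult against P3, 44 were called (65.3%), and 60 over the 4 ages (77.6%). No paired analysis was possible for P7 because its replicates carry numbers the other ages lack. Depth limits Robo3, Slit1 and Epha6, each with a library at or under 3 reads.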
